A study of Mus musculus with 13 samples.

Results

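Cell cycle genes were followed through the cells of mouse lungs: 40 of the 31053 genes in the deposited single-cell matrix, the members below, were chosen by symbol for their textbook roles, with earlier results of these data known. The 16 replication members copy DNA or prepare for it (Ccne1, Ccne2, Mcm2, Mcm3, Mcm4, Mcm5, Mcm6, Mcm7, Pcna, Rrm1, Rrm2, Tyms, Gins2, Cdc6, Uhrf1 and Pclaf). The 24 mitosis members act from the end of replication to the separation of the daughter cells (Mki67, Top2a, Birc5, Cdk1, Ccna2, Ccnb1, Ccnb2, Cdc20, Cdca3, Cdca8, Cenpa, Cenpe, Cenpf, Aurka, Aurkb, Bub1, Bub1b, Plk1, Tpx2, Nusap1, Ube2c, Hmmr, Kif11 and Kif23). All 40 were found once each in the matrix, and each was detected.

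The study placed 1 mouse in each of 4 single-cell groups, labelled Asthma, Control, PPE-emphysema and PPE-recovery. Asthma was an ovalbumin model of allergic airway inflammation. Porcine pancreatic elastase (PPE) was instilled into the airway repeatedly for PPE-emphysema and only 1 time for PPE-recovery. The study's stock mice were C57BL/6. The other 9 labelled samples (Acute injury, Con and emphysema, 3 each) were not analysed here. The matrix holds 37344 cell barcodes in 7 libraries, numbered 1 to 7 by the barcode ending, and the sources used here give no map from libraries to groups. The cells were therefore treated as 1 sample without replicates: no groups were compared, no p-value was computed, and every interval below is an exact 95% interval that covers counting error only.

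The 33618 barcodes with at most 10% mitochondrial UMIs (unique molecular identifiers, each standing for 1 captured transcript) were kept. Library medians ran from 5272 to 9114 UMIs per cell. Libraries 4, 5 and 6 stood apart from their label as lung: globin transcripts made up 38.6%, 40.6% and 35.3% of their UMIs, against at most 0.0310% in libraries 1, 2, 3 and 7, and no endothelial-like, fibroblast-like, AT2-like, alveolar macrophage-like or cDC2-like cell was found in them. Their shallowest kept barcodes also held 3439 to 5735 UMIs, against 304 to 501 in the other libraries. They are called the hemoglobin-rich libraries below, the rest the lung libraries, and a level without a library named is pooled over both kinds. T cell-like, B cell-like, NK cell-like, monocyte-like, neutrophil-like and pDC-like cells came from both, late erythroid-like cells almost only from the hemoglobin-rich ones, and the other large classes from the lung libraries. A total of 306 barcodes (0.819%) carried a sequence that occurred in more than 1 library.

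Cells were grouped without the 152 listed cell cycle genes, so no member took part in forming the classes compared below. Cycle genes outside those lists were not left out. Marker lists named 27 classes that held 31409 cells, and 2209 cells in 13 clusters were left without a name, 787 of them in 7 clusters with markers of several classes. Levels are summed UMIs per 1000000 UMIs of the class (CPM). The assay reads only the 3′ end of a transcript, so no length scaling was applied and a member is compared mainly with itself across classes.

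As background, a dividing cell first loads the Mcm2 to Mcm7 helicase onto DNA with the help of Cdc6, and E-type cyclins start replication. Pcna, the sliding clamp, holds the polymerases on DNA, while Rrm1, Rrm2 and Tyms supply deoxynucleotides. Cdk1 with A- and B-type cyclins then drives mitosis, Plk1 and the Aurora kinases build the spindle, Bub1 and Bub1b hold the checkpoint, and Cdc20 and Ube2c serve the ubiquitin ligase that ends mitosis. Transcription of the replication genes is known to be driven by E2F factors, and that of the mitosis genes by complexes that read a CCAAT box and the cell cycle homology region. Most lung cells of an adult are at rest, whereas macrophages, dendritic cells and lymphocytes in the lung can divide locally.

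The upstream sequences of both groups of members show these letters. Promoter windows from 250 bases before to 50 after the start, from RefSeq on GRCm38.p6, were at hand for 34 of the 40 members (36 promoters) and for 32851 promoters in all. Motifs were searched on both strands. The box was spelled CCAAT, and the homology region TTTGAA with the variant TTCGAA. The E2F core was searched as TTCCCGC and in the related spellings TTGGCGC and also TTCGCGC and lastly TTGCCGC. The stretches below are the 150 bases closest to the start that no GENCODE exon covers, 5′ to 3′ on the gene's strand, with every motif match in capitals. Mcm6 and Mcm3 stand for replication, Ccnb2 and Cdk1 for mitosis, and Ube2c and Kif23 for the members whose levels left the common pattern. In Mcm6 each run TTGGCGCGAA holds overlapping E2F cores on opposite strands.
Mcm6, chr1:128359706-128359855, minus strand: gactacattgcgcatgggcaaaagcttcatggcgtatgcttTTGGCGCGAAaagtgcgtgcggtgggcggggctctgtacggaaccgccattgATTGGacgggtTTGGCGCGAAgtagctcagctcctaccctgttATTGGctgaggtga
Mcm3, chr1:20820313-20820462, minus strand: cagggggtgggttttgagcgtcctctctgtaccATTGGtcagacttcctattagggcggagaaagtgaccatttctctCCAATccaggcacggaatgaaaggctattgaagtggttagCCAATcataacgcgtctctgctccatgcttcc
Ccnb2, chr9:70421555-70421704, minus strand: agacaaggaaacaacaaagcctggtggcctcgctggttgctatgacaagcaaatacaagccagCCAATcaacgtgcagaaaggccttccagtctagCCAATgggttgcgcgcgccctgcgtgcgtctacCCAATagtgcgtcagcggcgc
Cdk1, chr10:69352939-69353088, minus strand: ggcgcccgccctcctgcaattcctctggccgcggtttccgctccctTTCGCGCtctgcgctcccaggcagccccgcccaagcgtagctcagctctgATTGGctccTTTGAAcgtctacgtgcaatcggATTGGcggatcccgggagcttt
Ube2c, chr2:164769748-164769897, plus strand: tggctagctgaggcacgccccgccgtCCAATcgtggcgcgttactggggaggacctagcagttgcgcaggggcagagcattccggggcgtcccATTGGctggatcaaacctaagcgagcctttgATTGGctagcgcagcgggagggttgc
Kif23, chr9:61946800-61946949, minus strand: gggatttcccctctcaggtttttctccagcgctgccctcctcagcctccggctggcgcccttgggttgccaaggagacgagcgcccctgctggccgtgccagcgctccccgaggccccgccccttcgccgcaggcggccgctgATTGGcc

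An E2F core lay in 11 of 15 replication promoters (73.3%), in 4 of 21 mitosis promoters (19.0%) and in 9.57% of all promoters. The homology region lay in 17 of 21 mitosis promoters (81.0%), in 2 of 15 replication promoters (13.3%) and in 19.2% of all. A CCAAT box was present in 19 of 21 mitosis promoters (90.5%) and 12 of 15 replication promoters (80.0%), against 37.4% of all, and at least 2 boxes in 66.7%, 53.3% and 11.7%. In the shorter window of 150 bases before the start, the homology region was found in 28.6% of mitosis promoters and 9.70% of all. The full window of Ube2c held 6 CCAAT boxes and 1 homology region, that of Kif23 1 of each, and that of Nusap1 held no match of any kind, as did that of Birc5. These are counts of letters, not of occupied sites.

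**Figure D1:**
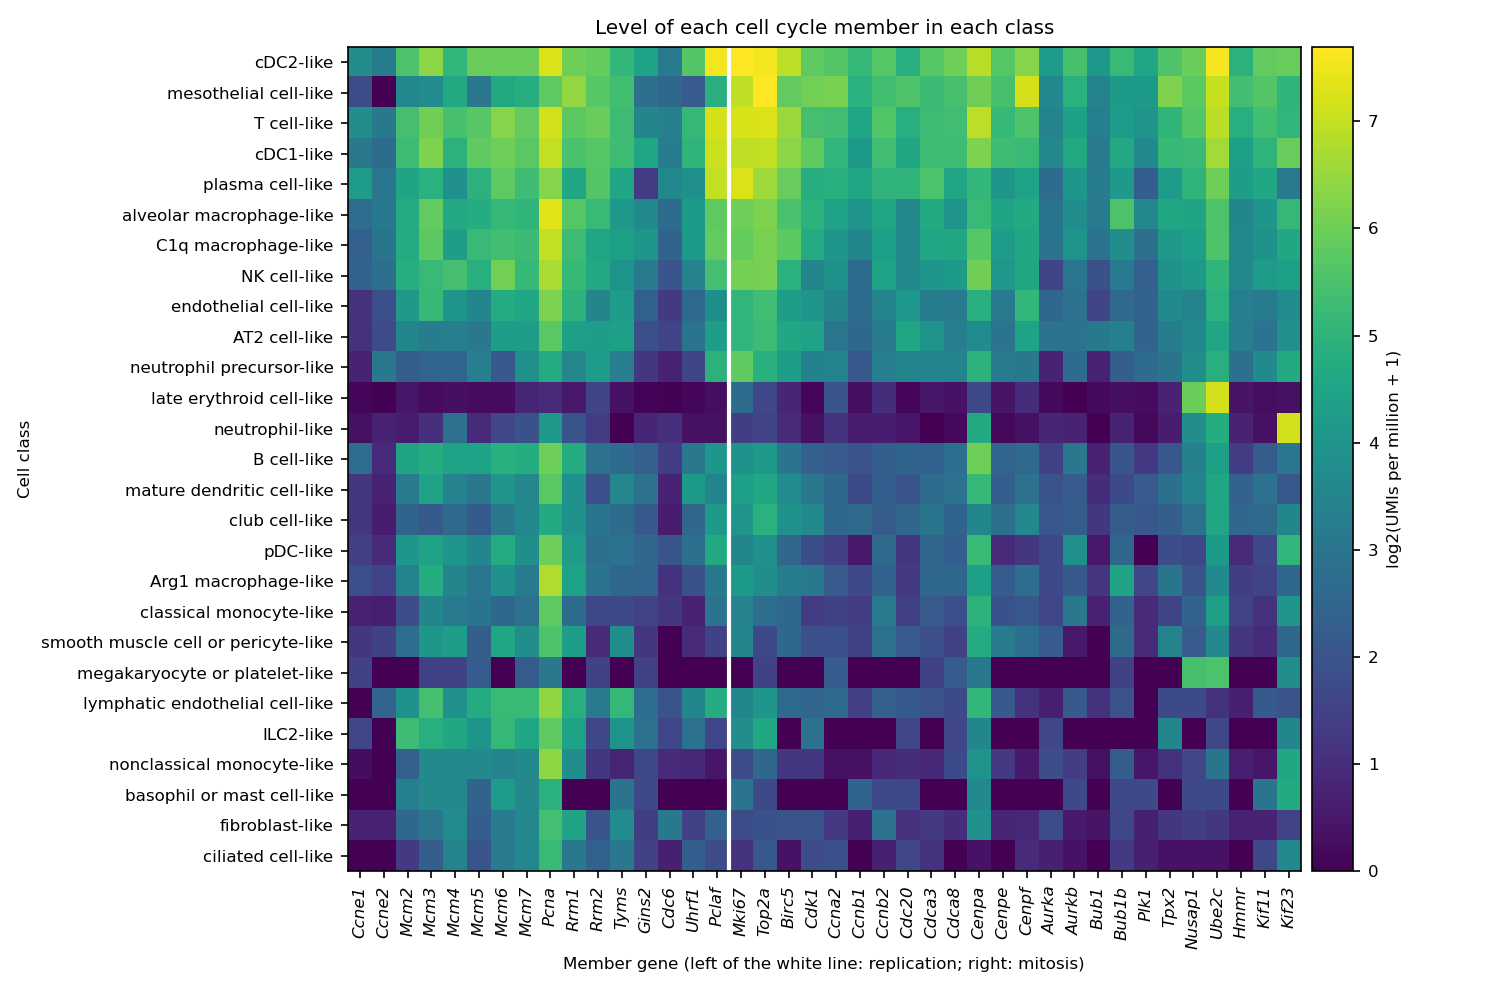
Level of each of the 40 members (columns, replication members left of the white line and mitosis members right of it) in the 27 classes (rows, ordered by mitosis sum) as log2(CPM + 1), all libraries pooled. The upper rows, from cDC2-like to cDC1-like cells, carry nearly every member, while the row of late erythroid-like cells is bright mainly at Ube2c and Nusap1 and that of neutrophil-like cells mainly at Kif23.

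The mitosis members were highest in cDC2-like, mesothelial-like, T cell-like and cDC1-like cells. Summed over the 24 mitosis members, the level was 1669 CPM (1638–1700) in cDC2-like cells (conventional dendritic cells that present antigen to helper T cells; 479 cells), 1425 (1345–1509) in 53 mesothelial-like cells, 1224 (1206–1242) in 1942 T cell-like cells and 1077 (1056–1099) in cDC1-like cells. Plasma cell-like (797 CPM), alveolar macrophage-like (634) and C1q macrophage-like cells (576) followed, and ciliated-like (32.7) and fibroblast-like cells (52.3) were lowest. The cDC2 interval lay above that of every other class with all libraries pooled. In the lung libraries alone it overlapped that of T cell-like cells at 1617 CPM (1590–1644). The lead was lost under several alternatives, among them some given next. The replication sum had much the same order, with 939 CPM in cDC2-like, 849 in T cell-like, 779 in cDC1-like and 561 in alveolar macrophage-like cells. At the bottom stood neutrophil-like cells with 38.0 CPM, megakaryocyte or platelet-like cells with 24 and late erythroid-like cells with 6.10. Globin in the denominator set the order of these 3, since without it the values were 44.9, 62.4 and 50.7 CPM.

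The order of the leading classes moved with the filters, the clustering and the libraries. At a mitochondrial limit of 5%, the mitosis sum was 1670 CPM in T cell-like and 1373 in cDC2-like cells. With the study's limits on UMIs and genes per cell, the mitosis sum was 819.7 CPM in T cell-like, 471 in cDC2-like, 315 in cDC1-like, 289 in alveolar macrophage-like and 243 in C1q macrophage-like cells, so T cell-like cells stood above cDC2-like cells. Without library 1, mesothelial-like cells (1467 CPM) stood above cDC2-like cells (1134), and T cell-like (1099) and cDC1-like cells (1002) came close to the latter. With globin out of the denominator, late erythroid-like cells stood first at 1854 CPM, most of it Ube2c and Nusap1. With cycle genes kept in the clustering, cDC2-like cells were at 2499 CPM, plasma cell-like cells at 57.8 and C1q macrophage-like cells at 95.4.

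The 2 sums were not in a fixed ratio. Replication over mitosis UMIs was 0.563 in cDC2-like cells, 0.693 in T cell-like cells and 0.886 in alveolar macrophage-like cells. In fibroblast-like (2.70), ciliated-like (3.1), lymphatic endothelial-like (3.26) and ILC2-like cells (3.31), classes with few mitosis transcripts, replication members prevailed. Mesothelial-like cells, the lining of the pleura, had the opposite balance with 0.268. The lowest ratios were those of late erythroid-like cells (0.0273), neutrophil-like cells (0.175) and megakaryocyte or platelet-like cells (0.200), and these are described separately below because 3 members made up most of their mitosis sum.

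**Figure D2:**
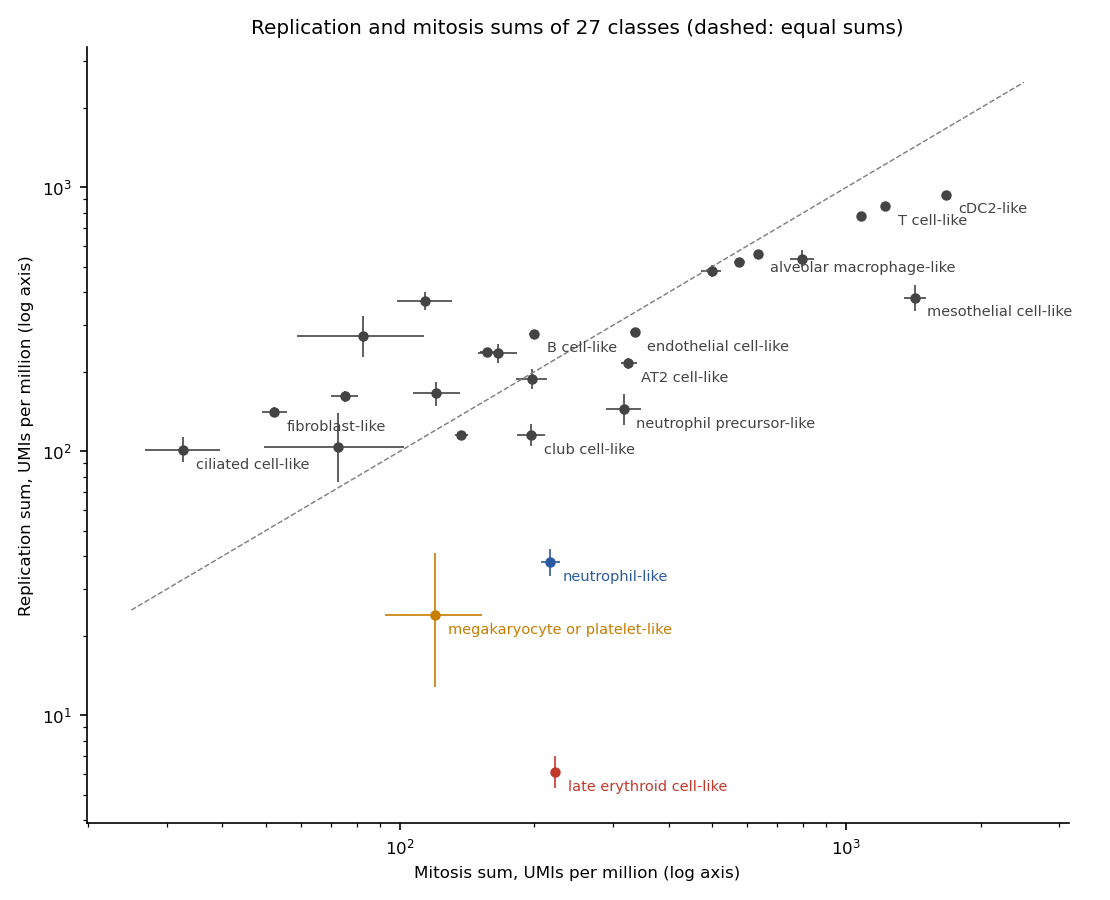
Summed level of the 24 mitosis members (horizontal, CPM, log axis) against that of the 16 replication members (vertical, CPM, log axis), with 1 point for each of the 27 classes over all libraries, lines for 95% counting intervals and a dashed line of equal sums. Late erythroid-like cells sit far below the line at 223 and 6.10 CPM, while cDC2-like cells sit at the upper right at 1669 and 939.

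Among replication members, the origin licensing genes were highest in the same classes. Mcm6 reached 78.3 CPM (73.8–83.0) in T cell-like, 66.1 in NK cell-like and 62.5 in cDC1-like cells, and Mcm3 81.3 CPM in cDC2-like and 72.1 in cDC1-like cells. Summed, the licensing and helicase genes were at 371 CPM in cDC2-like, 354 in T cell-like and 215 in alveolar macrophage-like cells, and at 1.99 in late erythroid-like cells. Cyclin E genes were scarce throughout. Ccne1 was highest in plasma cell-like cells at 18.1 CPM (11.5–27.2) and Ccne2 in cDC2-like cells at 8.64 CPM, and neither differed from its next class beyond the intervals. For Ccne1 the next class was T cell-like (13.0 CPM), and for Ccne2 it was alveolar macrophage-like (7.72 CPM).

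The clamp Pcna had a level above 16 CPM in most classes. Alveolar macrophage-like cells, which clear surfactant and particles from the airspaces, had 159.9 CPM (156–164), with intervals overlapping those of cDC2-like cells at 155 (145–164). T cell-like cells had 142 CPM of Pcna, fibroblast-like cells still 40.9 and neutrophil-like cells 16.5. Its partner Pclaf was more restricted, at 189 CPM (179–199) in cDC2-like, 147 in T cell-like, 53.9 in alveolar macrophage-like and 4.36 in fibroblast-like cells. Uhrf1, which keeps DNA methylation through replication, was likewise highest in cDC2-like cells at 48.3 CPM, with T cell-like cells next at 34.2. For Pclaf and Uhrf1 alone among the 16 replication members was the interval of the leading class clear of the next. How often this holds over all genes was not counted. The nucleotide genes Rrm1 (85.4 CPM) and Tyms (40.3 CPM) led in mesothelial-like cells with wide intervals, and Rrm2 in T cell-like cells (59.7 CPM).

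Of the mitosis members, cDC2-like cells led in 14 of 24. Mki67, the proliferation marker that coats mitotic chromosomes, had 206 CPM (196–217) there, 155 in plasma cell-like, 149 in T cell-like and 62.8 in alveolar macrophage-like cells. Top2a, which untangles replicated DNA, had 204 CPM (174–237) in mesothelial-like and 189 (179–199.7) in cDC2-like cells, whose intervals overlap. Birc5, a subunit of the chromosomal passenger complex, had 121 CPM (113–130.0) in cDC2-like and 91.9 in T cell-like cells. The kinases were lower. Plk1 reached 22.0 CPM, Aurkb 42.5, Aurka 17.6 and Bub1 16.1 in cDC2-like cells, each with intervals that overlap those of mesothelial-like cells. Over both groups, cDC2-like cells were the highest class for 21 of 40 members and among the first 2 for 33. How often each class leads over all genes was not counted, so these counts are not read as particular to the members. The ranks pool all libraries, and T cell-like cells include those of the hemoglobin-rich libraries, where their mitosis sum was 639.6 CPM against 1617 in lung libraries.

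Mesothelial-like cells led for 9 members, among them Cenpf, a kinetochore protein of late cycle, at 145 CPM (120.3–174) against 77.9 (71.4–84.8) in cDC2-like cells, and Tpx2, a spindle assembly factor, at 73.2 CPM (55.9–94.2) against 47.0. Cdk1 (65.9 CPM), Ccna2 (69.6 CPM), Cdc20 (46.4 CPM) and Hmmr (40.3 CPM) were also highest there, with intervals that overlap the next class. After thinning every cell to 1500 UMIs at random, with shallower cells left out, only 3 of 43 mesothelial-like cells (6.98%) held at least 3 mitosis UMIs.

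Members differed in how closely they followed the sum of their group from class to class. Over the 27 classes, Pearson's r between log2(CPM + 1) of a member and of the rest of its sum was at least 0.90 for 7 of 16 replication members, with Mcm7 at 0.96, and for 3 of 24 mitosis members, with Hmmr at 0.93. The classes differ in depth and cell number, so r is given as a description. The other members lay below 0.90, and the lowest was Kif23, with r of 0.31.

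**Figure D3:**
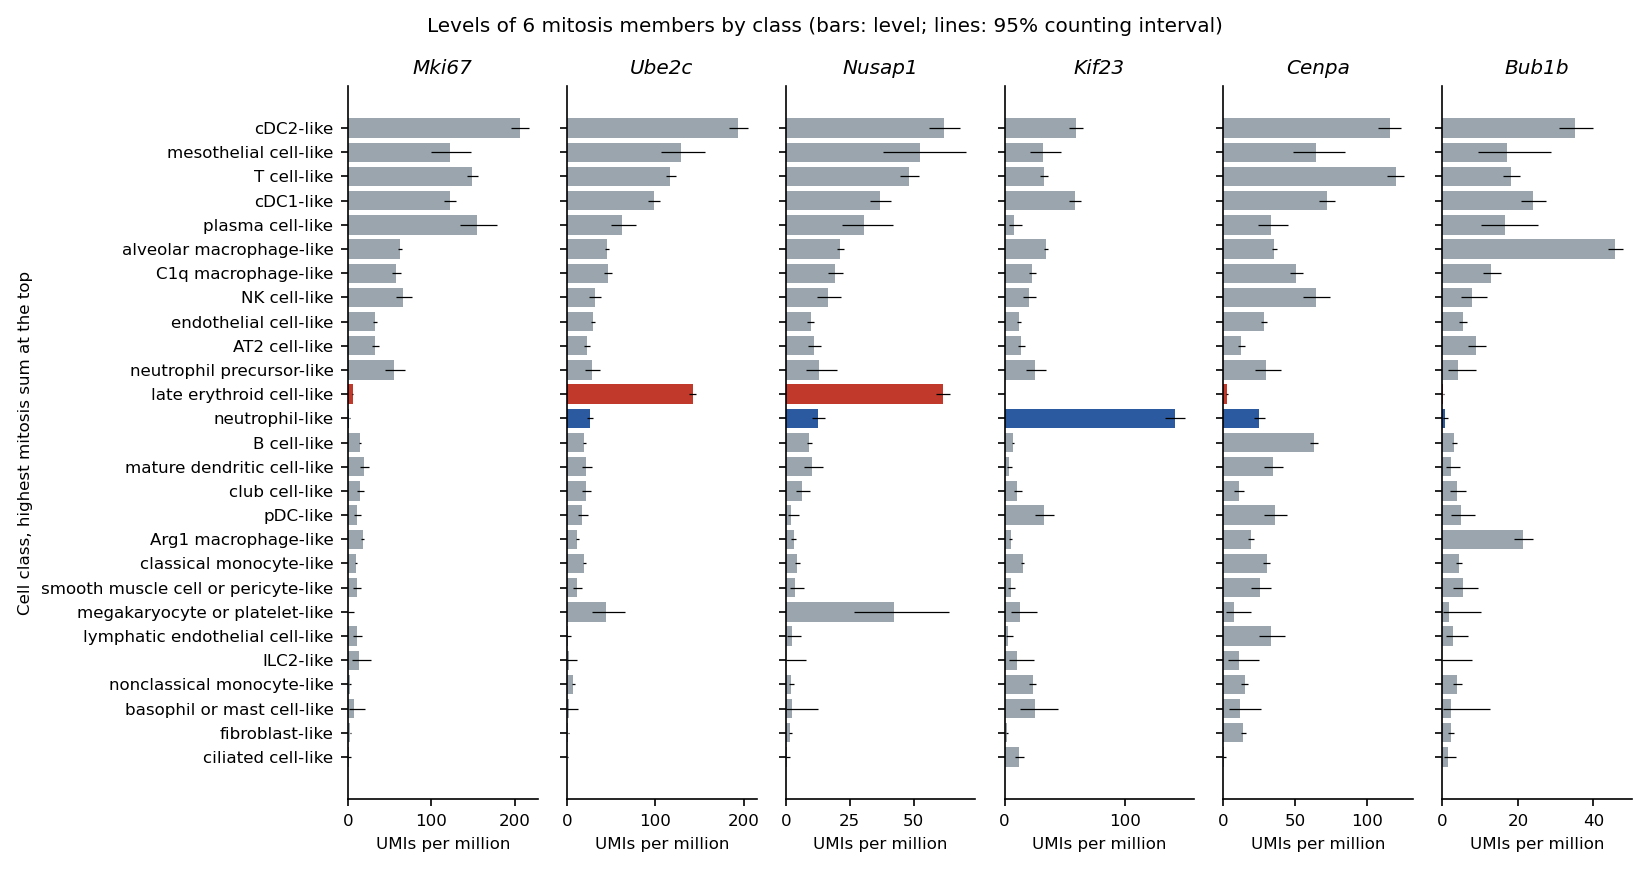
Levels (bars, CPM from 0; lines, 95% counting intervals) of Mki67, Ube2c, Nusap1, Kif23, Cenpa and Bub1b, 1 panel each, in the 27 classes ordered by mitosis sum; late erythroid-like cells are red and neutrophil-like cells blue. Mki67 is near 0 in both colored classes, whereas Ube2c and Nusap1 reach 142 and 61.7 CPM in late erythroid-like cells, Kif23 reaches 142 in neutrophil-like cells, and Bub1b is highest in alveolar macrophage-like cells at 45.8.

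Late erythroid-like cells, the hemoglobin-filled precursors of red cells, carried mainly 2 mitosis members. Ube2c, the ubiquitin-conjugating enzyme of mitotic exit, stood at 142 CPM (138–146) in 5395 cells, between cDC2-like (193) and mesothelial-like cells (129). Nusap1, which bundles spindle microtubules, stood at 61.7 CPM (59.0–64.4), level with cDC2-like cells (61.9). Together they made up most of the class's mitosis sum of 223 CPM, with shares of 63.6% for Ube2c and 27.6% for Nusap1. Of 12 such cells outside the hemoglobin-rich libraries, 1 cell of library 7 held 238 of the 241 mitosis UMIs and 55 of Mki67, so the low members are given for the 5383 cells of libraries 4 to 6, whose mitosis sum was 216 CPM. There Mki67 had 3.93 CPM (3.28–4.67), Ccna2 2.75, Cenpa 2.03 and Top2a 1.72, low but detected, and Cdk1 and Aurkb had no UMI, which allows up to 0.0907 CPM for each. Among replication members Rrm2 had the most with 1.91 CPM, and Pcna had 0.817. Ube2c and Nusap1 were at 141 and 61.6 CPM there.

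Globin filled 88.0% of the UMIs of these cells, which lowers the CPM of every other gene. With globin left out of the denominator, Ube2c was at 1180 CPM and the replication sum at 50.7 CPM. With cells placed by their own markers instead of their cluster, the replication sum of the class was 54.1 CPM in place of 6.10. Without Ube2c, Nusap1 and Kif23, a choice made after their levels were seen, the mitosis sum of the class was 19.2 CPM. In its cells from the hemoglobin-rich libraries alone, this reduced sum was 13.2 CPM. With globin also out of the denominator, the reduced sum was 159 CPM over all libraries and 110.2 in the hemoglobin-rich ones. On that scale it was 43.3 CPM in neutrophil-like and 1058 in T cell-like cells over all libraries.

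The 3 hemoglobin-rich libraries held nearly all of these cells. Ube2c was at 199 CPM in library 4, 142 in library 5 and 81.4 in library 6, and Nusap1 at 66.7, 75.6 and 38.9. Both were lowest in library 6 and the Ube2c levels do not overlap between libraries. By cluster in these libraries, Ube2c was at 186, 136, 80.4 and 116 CPM in clusters 3, 5, 9 and 17, Nusap1 at 74.6, 66.4, 36.1 and 54.4, and Mki67 at 4.88, 4.86, 0.566 and 4.73. Cluster 9 was thus lowest for all 3 genes, cluster 3 was highest for Ube2c, and the Mki67 intervals of clusters 3, 5 and 17 overlap. No order in maturation was assigned to these clusters. Cluster 17 was led by the platelet genes Ppbp and Itga2b, with globins after them. Its score for megakaryocyte or platelet markers (2.06) was above that for late erythroid markers (2.01).

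In single late erythroid-like cells Ube2c was spread widely rather than held by a few. It had at least 1 UMI in 2359 of 5395 cells (43.7%), of which 1274 had exactly 1 and 551 had 3 or more, with a highest count of 37. Among 1710 fibroblast-like cells, which are deeper (median 10774 UMIs against 5617), 14 had Ube2c. Of the erythroid cells with Ube2c, 1490 (63.2%) held no UMI of another mitosis member. Nusap1 was seen in 1352 cells (25.1%). The 2 genes met in 91 cells thinned to 1500 UMIs, where independence within class and library predicts 77.2, a ratio of 1.18 (0.950–1.45).

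RNA that leaked from red cell precursors can reach other droplets, so both genes were set against globin in cells of other classes. In library 4, Ube2c per 1000000 globin UMIs was 225 (215–235) in late erythroid-like, 202 (167–243) in neutrophil-like, 234 (186–292) in B cell-like and 205 in T cell-like cells. In library 5 it was 162 in late erythroid-like, 145 in neutrophil-like and 181 in B cell-like cells, and in library 6 it was 92.5, 107 and 95.5. In these neutrophil-like and B cell-like cells the intervals of the ratio overlap those of the erythroid class in all 3 libraries. T cell-like cells of library 5 were far above that ratio at 1974. NK cell-like cells of library 5 (561, 375–805) and classical monocyte-like cells of library 5 (306, 175–496) were also above it. Classical monocyte-like cells of library 4 were above it at 440.3. For Nusap1 the ratio in library 4 was 75.3 in late erythroid-like, 69.2 in neutrophil-like and 61.5 in B cell-like cells. In library 5 it was 86.4, 106 and 85.2, and in library 6 it was 44.2, 55.9 and 54.2, again with overlapping intervals. The Nusap1 ratio was higher in library 5 T cell-like (1268) and NK cell-like cells (329) and library 4 classical monocyte-like cells (104). Megakaryocyte or platelet-like cells, 61.5% of whose UMIs were globin, had 44.3 CPM of Ube2c and 42.5 of Nusap1, and in library 5 their Ube2c ratio was 98.6 (62.5–148), below that of the erythroid class. In neutrophil-like cells Ube2c was at 108, 43.9 and 19.5 CPM in libraries 4, 5 and 6 and at most 5.53 in the lung libraries. The source of these transcripts outside the erythroid class was not tested.

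Neutrophil-like cells, short-lived phagocytes that no longer divide, carried Kif23, a kinesin of the central spindle and cytokinesis, above every other class. Kif23 was at 142 CPM (133–150.2) in 1968 cells, against 59.5 in cDC2-like, 58.6 in cDC1-like and 0.272 in late erythroid-like cells, and made up 65.2% of the class's mitosis sum. It was at 168 CPM in lung and 111 in hemoglobin-rich libraries and present in each library, at 259.7, 156, 143, 51.0, 169.9, 104 and 200.4 CPM in libraries 1 to 7, lowest in library 4. Both clusters of the class had it, cluster 7 at 168 and cluster 21 at 111 CPM. These levels have globin in the denominator, which lowers every other gene. Globin made up 32.6% of the UMIs of cluster 21 and 0.00219% of those of cluster 7. In the class's cells of library 4 it made up 53.2%. The lower Kif23 levels of cluster 21, the hemoglobin-rich libraries and library 4 are therefore given as CPM. Levels without globin were not compared between clusters or libraries. Nonclassical monocyte-like cells, another class with a low mitosis sum (75.2 CPM), had 23.2 CPM of Kif23, 30.9% of that sum. In neutrophil precursor-like cells, which express secondary granule genes, Kif23 was at 16.9 CPM and the mitosis sum at 139 in the 129 of 150 cells that came from the hemoglobin-rich libraries, against a sum of 317 CPM with the few cells of lung libraries included.

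The other mitosis members were low in neutrophil-like cells. Cenpa had 25.1 CPM, Ube2c 26.1, Nusap1 12.7, Top2a 1.96 and Mki67 1.70, and no UMI of Cdca3 or Bub1 was found. Without Ube2c, Nusap1 and Kif23 the sum was 36.7 CPM, close to the replication sum of 38.0. Kif23 was seen in 719 cells (36.5%) at a median depth of 3182.5 UMIs, and in 9 of 5395 late erythroid-like cells at 5617. Of the 719, 579 (80.5%) held no UMI of another mitosis member. Cenpa and Kif23 met in 13 thinned cells where 16.3 were predicted, a ratio of 0.798. Kif23 lies at chr9:61915905-61946774 on the minus strand (GRCm38) and no other annotated gene overlaps it. Ube2c (chr2:164769898-164778822, plus strand) has Tnnc2 on the opposite strand, and Nusap1 (chr2:119618298-119651244, plus strand) shares its locus with the small RNA gene n-R5s204 and, on the other strand, Oip5. In all, 7 of 40 members overlapped a gene on the same strand and 14 a gene on the other.

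Alveolar macrophage-like cells were highest for the checkpoint kinase gene Bub1b, at 45.8 CPM (43.9–47.8) against 35.1 (30.8–39.9) in cDC2-like and 18.2 in T cell-like cells. It was at 59.9, 38.4, 54.7 and 38.6 CPM in libraries 1, 2, 3 and 7. Arg1 macrophage-like cells, with a mitosis sum of only 157 CPM, also had 21.3 CPM of Bub1b. Its partner Bub1 did not share this order, with 8.01 CPM in alveolar macrophage-like and 16.1 in cDC2-like cells. Bub1b was seen in 1167 of 3115 alveolar macrophage-like cells (37.5%), and 415 of these (35.6%) held no UMI of another mitosis member. It was seen in 30 of 1710 fibroblast-like cells. Pairs of Bub1b with the other 23 mitosis members in this class met 1.47 to 7.03 times as often as predicted, with a median of 3.94, where the median over all 163 pairs of mitosis members in the class was 11.6.

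Cenpa, the histone that marks centromeres, was highest in T cell-like cells at 120.0 CPM and next in cDC2-like cells at 116, with overlapping intervals. In B cell-like cells, whose other mitosis members were low (Mki67 14.3 CPM, Top2a 17.3), Cenpa was still at 63.0 CPM, with 89.0 in lung and 51.8 in hemoglobin-rich libraries. It was found there in every library, at 98.9, 92.5, 148, 33.5, 45.7, 59.5 and 38.0 CPM in libraries 1 to 7, including library 6, where Mki67 in the same cells had 1.59 CPM. Over all classes the median joint detection ratio of Cenpa with other members was 3.72, against 9.47 for Cenpf.

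**Figure D4:**
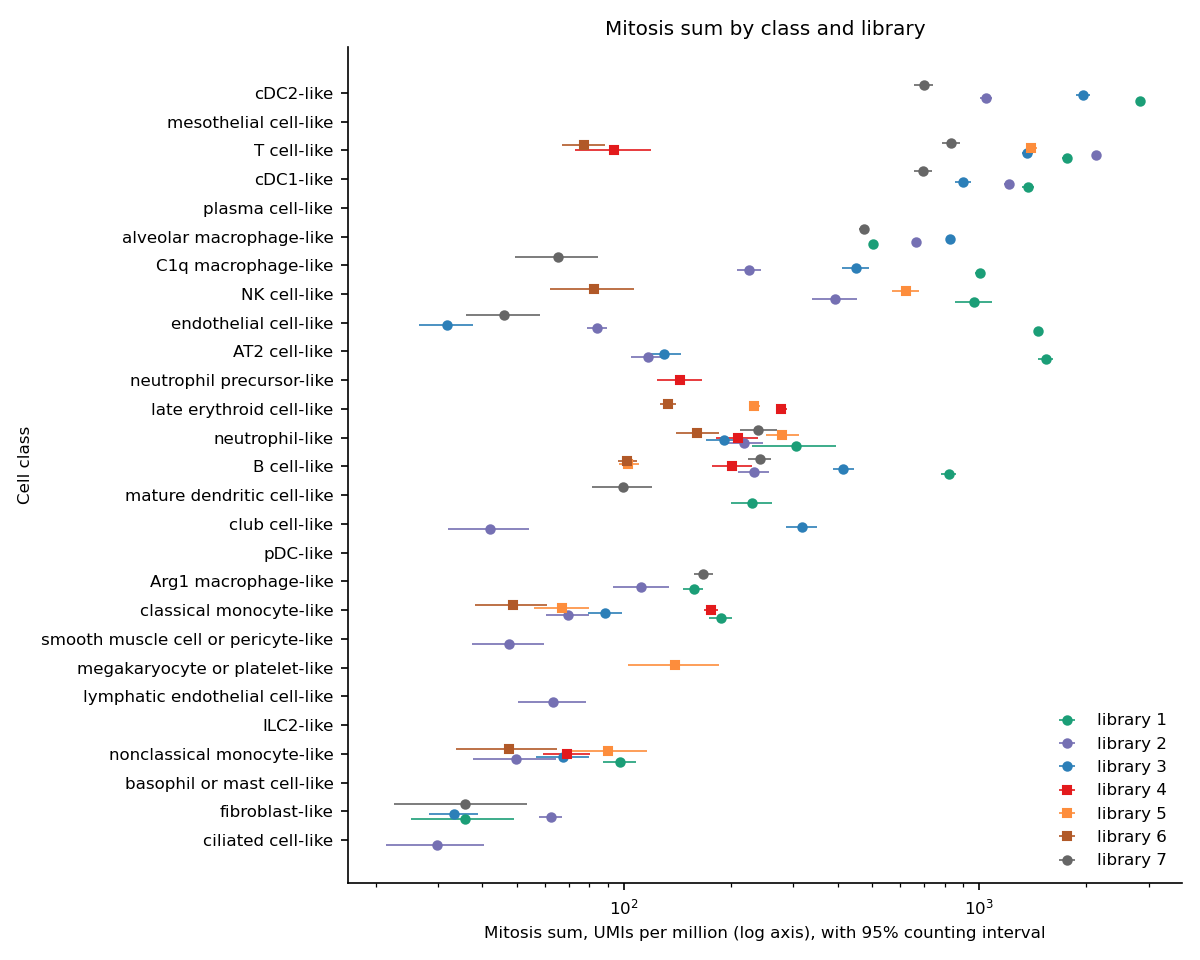
Mitosis sum (horizontal, CPM, log axis) of each class (rows) in each library with at least 50 cells of it; colors give the library, circles are lung libraries, squares hemoglobin-rich libraries and lines 95% counting intervals. T cell-like cells range from 77.1 CPM in library 6 to 2128 in library 2, and endothelial-like cells from 31.7 in library 3 to 1467 in library 1.

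The same class could differ widely between libraries. In T cell-like cells the mitosis sum was 1761, 2128 and 1364 CPM in libraries 1, 2 and 3 and 832 in library 7. In the hemoglobin-rich libraries it was 93.8, 1402 and 77.1 CPM in libraries 4, 5 and 6, so library 5 lay with the lung libraries and the others far below. Mki67 in T cell-like cells followed the same split, at 216, 192, 142, 1.36, 234, 3.84 and 158 CPM in libraries 1 to 7. Pooled, T cell-like cells had 1617 CPM in lung libraries and 639.6 in hemoglobin-rich ones, with replication sums of 935 and 720.4.

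The T cell-like cells lay in 3 clusters. Cluster 14, led by Lef1, Dapl1 and Tcf7, genes of resting T cells, had a mitosis sum of 103 CPM and a replication sum of 225. It held 288 of 358 T cell-like cells in library 6 and 50 of 75 in library 4, but was also the largest of the 3 in library 5, with 131 of 233, and in library 3, with 178 of 320, where the class's sum was high. Cluster 19, led by Icos and Ctla4, genes of activated and regulatory T cells, had 2248 and 1238 CPM, and cluster 28, led by Ccl5, Nkg7 and Cd8b1, genes of cytotoxic T cells, 1686 and 1338. The mitosis sum in cluster 19 was thus the higher of the pair and its replication sum the lower, and neither pair of intervals overlaps.

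The cDC2-like cells had mitosis sums of 2836, 1045, 1955 and 698 CPM in libraries 1, 2, 3 and 7, and cDC1-like cells 1374, 1212, 898 and 693. Alveolar macrophage-like cells were more even, with 503, 662, 825 and 473 CPM, although different clusters held most of them. Cluster 20 held 564 of 607 in library 1, cluster 13 717 of 765 in library 3, and cluster 4 1076 cells in library 2 and 487 in library 7. The mitosis sums of clusters 4, 13 and 20 were 591, 767 and 561 CPM. Library 1 was highest for both dendritic classes and library 7 lowest for all 3 classes. Mki67 in cDC2-like cells was at 325, 128, 273 and 106 CPM in the same libraries. Without library 1 the cDC2 sum was 1134 CPM.

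Library 1 alone decided several classes. In endothelial-like cells, which line blood vessels, the mitosis sum was 1467 CPM in library 1 and 84.2, 31.7 and 46.1 in libraries 2, 3 and 7, so the pooled 336 CPM fell to 67.5 without library 1. Mki67 showed the same, at 153, 5.88, 0 and 1.30 CPM, where the 0 allows up to 0.715. AT2-like cells, the surfactant-making cells of the alveolus, had 1537 CPM in library 1, 117 in library 2 and 129.9 in library 3, and 115 without library 1. In 52 AT2-like cells of library 1, the 160 UMIs of Mki67 lay in 6 cells. C1q macrophage-like cells had 1007, 225, 449.6 and 65.1 CPM in libraries 1, 2, 3 and 7, and the pooled 576 CPM became 249 without library 1. Smooth muscle or pericyte-like cells went from 120.5 to 42.9 CPM and lymphatic endothelial-like cells from 114 to 58.9. B cell-like cells were highest in library 1 as well, at 819 CPM against 102 to 414 in the others, and the pooled 199.7 CPM became 154 without it.

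Cells that held several mitosis transcripts at once were counted with each cell thinned to 1500 UMIs, globin included. At least 3 mitosis UMIs were found in 17% of cDC2-like (13.6–20.7), 12.5% of cDC1-like, 12.3% of plasma cell-like, 6.19% of T cell-like (5.15–7.36), 5.53% of alveolar macrophage-like and 4.48% of C1q macrophage-like cells. In lung libraries alone the T cell share was 8.06%. Under the study's limits the cDC2 share was 6.62%, the cDC1 share 5.72%, the T cell share 4.67% and the alveolar macrophage share 3.12%. With cycle genes kept in the clustering, the plasma cell share was 0 and the C1q macrophage share 0.286%, while the cDC2 share was 29.8%. Unthinned, the T cell share was 16.5% and the alveolar macrophage share 25.9%, since the latter cells are deeper. Late erythroid-like cells had 1.39% and neutrophil-like cells 1.33% by this measure. Globin made up 88.0% and 15.3% of the UMIs of these classes. Fewer than 1500 UMIs were thus left for other genes, and their shares are not at equal depth with those of lung classes. Asking for at least 3 different mitosis members left 16.1% of cDC2-like, 5.72% of T cell-like and 5.24% of alveolar macrophage-like cells, but 0.0557% of late erythroid-like (3 of 5389) and 0.106% of neutrophil-like cells (2 of 1881). In classes that should hold few dividing cells, the counts were 1 of 1532 fibroblast-like cells (0.0653%) and 0 of 138 ciliated-like cells, which allows a share of up to 2.17%.

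**Figure D5:**
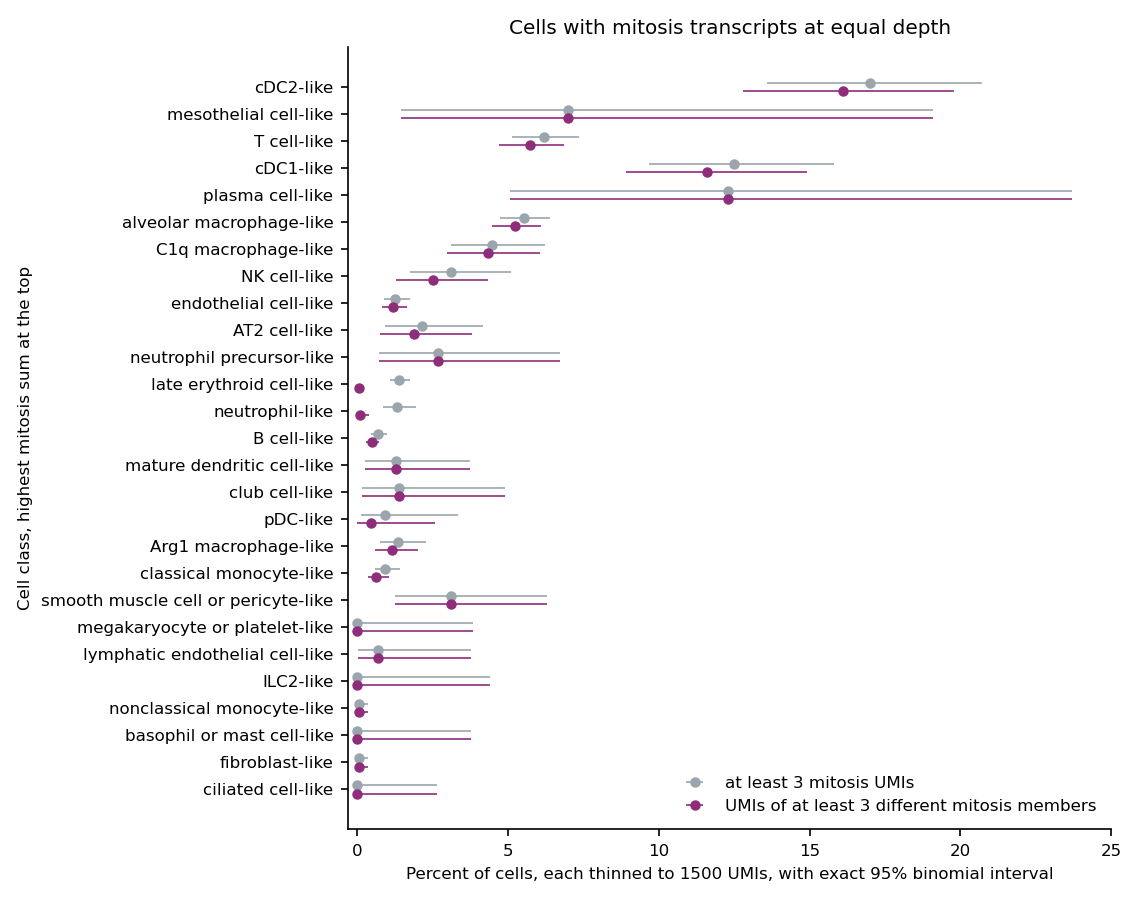
Share of cells of each class (percent, from 0) with at least 3 UMIs of mitosis members after thinning to 1500 UMIs, and share with at least 3 different mitosis members; lines are exact 95% binomial intervals. cDC2-like cells lead with 17% and 16.1%, and late erythroid-like and neutrophil-like cells fall from 1.39% and 1.33% to 0.0557% and 0.106%. The 1500 UMIs include globin, which made up 88.0% of the UMIs of late erythroid-like cells.

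With at least 3 different mitosis members required, 549 of 19125 lung library cells (2.87%, 2.64–3.12) and 44 of 12762 cells of the hemoglobin-rich libraries (0.345%) qualified. By library the share was 4.71%, 2.40% and 2.31% in libraries 1 to 3, 0.735% and 0.450% in libraries 4 and 5, 0 of 4882 in library 6, which allows up to 0.0614%, and 2.14% in library 7. Library 6 thus had none among the cells of any class. Of the 549, alveolar macrophage-like cells made up 162 (29.5%), T cell-like 91 (16.6%), cDC2-like 73 (13.3%), cDC1-like 56 (10.2%), endothelial-like 35 (6.38%) and C1q macrophage-like 32 (5.83%). Alveolar macrophage-like cells thus gave the largest number, at a share of 5.24% of 3090 cells. Among the classes just named, the highest share was in cDC2-like cells, at 16.1% of 454. Of the 35 endothelial-like cells, 30 were in library 1 and 5 in library 2.

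The 44 cells of the hemoglobin-rich libraries were of other kinds. T cell-like cells made up 18, all in library 5, and classical monocyte-like cells 12, all in library 4, with 6 NK cell-like cells. Only 2 of 5383 late erythroid-like cells there qualified, with globin counted in their 1500 UMIs. The qualifying lung cells had a median of 19915 UMIs before thinning, against 8391 for all lung cells of at least 1500 UMIs.

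By the wider measure of at least 3 mitosis UMIs of any members, the T cell share was 7.95%, 9.91% and 8.63% in libraries 1 to 3. It was 7.73% in library 5 and 4.21% in library 7. In library 4 it was 0 of 75 cells, which allows up to 4.0%, and in library 6 0 of 358, which allows up to 0.838%. For cDC2-like cells the share by this wider measure was 28.9%, 10.6%, 15.5% and 11.5% in libraries 1, 2, 3 and 7. For alveolar macrophage-like cells the 4 shares were 4.48%, 5.55%, 7.07% and 4.49%, the most even of the 3 classes. The higher levels in library 1 cDC2-like cells thus went with more cells that held mitosis transcripts.

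Replication and mitosis transcripts occurred in the same cells in part. Among thinned cells of the named lung classes, at least 3 replication UMIs were found in 1.40% of 15554 cells with no mitosis UMI, in 6.82% with 1 or 2, in 50.3% (42.6–58.0) with 3 to 5 and in 51.6% (46.6–56.5) with 6 or more. T cell-like cells kept this level, at 73.1% and 68.9%, as did alveolar macrophage-like cells at 51.0% and 59.2%. In cDC1-like cells the shares were 63.2% (38.4–83.7) and 26.8% (14.2–42.9), and in cDC2-like cells 63.2% and 39.7%, each pair with overlapping intervals. None of the 74 late erythroid-like cells with 3 to 5 mitosis UMIs reached 3 replication UMIs, and 1 of 25 neutrophil-like cells did. Replication UMIs were scarce in both classes at this depth, with means of 0.00783 and 0.0694 in their cells without a mitosis UMI. A count of 3 was hardly reachable, so these counts cannot show whether the phases overlap there.

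Pairs of members met in single cells more often than their levels predict within class and library. Over the 273 pairs of mitosis members with at least 1 predicted cell, 15569 joint detections stood against 2064 predicted, 7.54 times as many, with no single pair under 2.22 times. Pairs of replication members met 3.03 times as often, and pairs of 1 of each 3.03 times. At 3000 UMIs per cell the ratios were 6.42, 2.56 and 2.71. Within T cell-like cells mitosis pairs met 6.72 times as often as predicted and within alveolar macrophage-like cells 9.87 times. In late erythroid-like cells the ratio was 1.20 over 9 pairs and in neutrophil-like cells 1.02 over 5. Each of the 9 pairs held Ube2c or Nusap1, and the 5 lay among Kif23, Ube2c, Nusap1 and Cenpa. All other mitosis pairs in these classes had less than 1 predicted cell, so the ratios do not cover them. By member, the median ratio ran from 1.97 for Pcna and 2.11 for Gins2 to 9.42 for Plk1 and 9.47 for Cenpf. Among replication members Rrm2 (7.23) and Pclaf (6.81) lay with the mitosis members, while Mcm6 (2.21) and Mcm2 (2.26) lay near Pcna.

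The genes that open the cycle had other orders of classes. Among G1 cyclins, which pair with Cdk4 and Cdk6 to start the cycle, Ccnd1 was highest in cDC2-like cells at 508 CPM (491–525) and next in pDC-like cells (322), but near 0 in T cell-like (2.64) and alveolar macrophage-like cells (2.61). Ccnd2 was highest in ILC2-like cells (677 CPM), which had few mitosis transcripts, and in NK cell-like cells (660.2), and was at 366 in T cell-like and 362 in alveolar macrophage-like cells. Ccnd3 led in neutrophil precursor-like cells (355 CPM) and NK cell-like cells (339). Cdk4 was highest in lymphatic endothelial-like cells (119 CPM) and Cdk6 in alveolar macrophage-like cells (131). Cdk2 ran from 0 CPM in megakaryocyte or platelet-like cells to 26.9 in lymphatic endothelial-like cells.

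Inhibitors of the cyclin kinases were present in classes with many dividing cells too. Cdkn1a (p21) was at 559 CPM in mature dendritic-like, 383 in Arg1 macrophage-like, 320.0 in cDC2-like, 319 in alveolar macrophage-like and 18.2 in T cell-like cells. Cdkn1b (235 CPM) and Cdkn2d (179) led in neutrophil-like cells, Cdkn1c in ciliated-like cells (385), Cdkn2c in fibroblast-like cells (126), and Cdkn2a (25.5) and Cdkn2b (49.3) in mature dendritic-like cells. Cdkn1a, Cdkn1b, Cdkn2c and Cdkn2d were each lowest in late erythroid-like cells. These levels have globin in the denominator, which made up 88.0% of the UMIs of that class and lowers every other gene.

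Among E2F factors and their partners, E2f1 was highest in alveolar macrophage-like cells (37.6 CPM), E2f7 (7.76) and Mybl2 (10.1) in cDC2-like cells and Foxm1, the activator of mitosis genes, in mesothelial-like (17.1) and cDC2-like cells (14.2). E2f2 had another order. It was at 96.8 CPM in neutrophil precursor-like, 86.7 in classical monocyte-like, 69.2 in neutrophil-like and 62.7 in late erythroid-like cells. In cDC2-like cells it was at 38.4 and in T cell-like cells at 35.3. These levels have globin in the denominator. It made up 88.0% of the UMIs of late erythroid-like cells and 8.58% in neutrophil precursor-like cells. The place of late erythroid-like cells in this order therefore holds for CPM only. E2f8 was highest in 97 basophil or mast-like cells (77 CPM). E2f3 led in fibroblast-like cells (15.9 CPM), E2f4 in NK cell-like cells (46.9), and the pocket protein genes Rb1 (106) and Rbl2 (138) and the complex subunit Lin54 (42.3) in ILC2-like cells. Rbl1 was highest in alveolar macrophage-like (39.0 CPM) and T cell-like cells (38.0).

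The genes outside the lists whose pattern was most like that of the sums were sought among 12667 genes over 79 groups of 1 class in 1 library, by Pearson's r of log2(CPM + 1). For the replication sum these were Ran (0.937), Tubb5 (0.937), Nasp (0.932), Ncaph2, Lig1, Anp32b, Fen1, H2afx, Smc2 and Sae1. For the mitosis sum they were Nuf2 (0.892), Kif18b (0.887), Spag5 (0.881), Cep55, Aspm, Ska1, Kifc1, Ect2, Kif20a and Ncapg. With Ube2c, Nusap1 and Kif23 left out of the sum, the first places went to Cep55 (0.953), Aspm (0.949), Nuf2 (0.943), Kif20a (0.932) and Knl1 (0.932). Groups of 1 library share its depth and background RNA, and the highest of many correlations are given as a description.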

How the data were processed

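The authors deposited 1 matrix of UMI counts (31053 genes by 37344 barcodes) made with Cell Ranger 3.1.0 and the STAR aligner on mm10, per the file header and the submitters' processing notes. It comes from 10x Chromium 3′ libraries, which the labels and the study's methods give as different kit versions, and from whole lungs, 1 mouse per group. Libraries hold 29619014 to 76435633 UMIs in kept cells.

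The members and lists were chosen with earlier results of these data known. Barcodes with at most 10% mitochondrial UMIs were kept. Clustering left out 152 cycle genes and used 2000 variable genes, 30 principal components, 20 shared neighbors and Leiden resolution 2 (scanpy 1.11.5, leidenalg 0.10.2, Python 3.11.15), with no alignment of libraries. Clusters were named from 33 marker lists, and the rule that left mixed clusters unnamed was added after the data were seen. Doublets were not called in the main analysis. Intervals are exact Poisson (levels) or Clopper-Pearson (shares) at 95%, and 3 counts set the limit that a count of 0 allows. Joint detection was predicted from the product of the members' shares within class and library, for groups of at least 50 cells. Named genes were all 40 members, every gene of 3 further cycle lists and the 10 genes most alike to each sum, among genes with at least 500 UMIs. Scripts were tested on simulated data. Gene positions are from GENCODE on GRCm38. Alternatives covered the cell filters, clustering, naming, doublet calls, weighting, depth and thresholds.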

Additional observations from a re-analysis of the deposited data

How the results depend on the processing

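No paired analysis was possible because the libraries could not be assigned to the labelled samples, so the groups share no replicate numbers in the matrix. Values that moved beyond the counting interval were as follows, and the cause was not tested except where the alternative's construction shows it. The mitosis sum of T cell-like cells (1224 CPM) was 1192 at resolution 1, 1250 with cycle genes kept, 1670 at a mitochondrial limit of 5%, 819.7 under the study's limits on UMIs and genes, 1298 with cells placed by their own markers, 1094 with libraries weighted equally, 1263 with globin out of the denominator, 1026 without Ube2c, Nusap1 and Kif23, and 1045 to 1477 with each library left out. That of cDC2-like cells (1669) was 1380 at resolution 1, 1378 at resolution 3, 2499 with cycle genes kept, 1373 at 5%, 471 under the study's limits, 1294 with lung and hemoglobin-rich libraries clustered separately, 1441 by own markers, 1633 weighted equally, 1354 without the 3 members, and 1134 to 1988 with each library left out. That of late erythroid-like cells (223) was 229 at resolution 1, 217 with cycle genes kept, 211 by own markers, 214 weighted equally, 1854 with globin out, 19.2 without the 3 members and 199 to 263 over libraries left out. Their replication sum (6.10) was 54.1 by own markers and 50.7 with globin out. Of its values over libraries left out, 5.44 to 7.01, only 7.01 left the interval. Ube2c in late erythroid-like cells (142) was 115 by own markers, 1180 with globin out and 117 to 169 over libraries left out. Kif23 in neutrophil-like cells (142) was 126 by own markers, 155 weighted equally, 167 with globin out and 131 to 156 over libraries left out. The share of T cell-like cells with mitosis transcripts (6.19%) was 9.21% at 5%, 4.67% under the study's limits, 8.95% at 3000 UMIs and 16.5% unthinned. It was 8.97% with at least 2 UMIs and 4.88% with at least 5. Of its values over libraries left out, 5.43% to 7.62%, only 7.62% left the interval. Without the 744 cells that Scrublet called, none of these 7 results left its counting interval. The sum without 3 members, the count of different members and the levels in both kinds of library apart were chosen after seeing the data. Of 1299 values of 82 further results, 847 stayed within the counting interval and 1029 within 1.5-fold, while 72 were higher and 125 lower by more than that.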
